A study of Rattus norvegicus with 5 samples.

Results

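The genes described here encode the factors that start and extend a protein chain on the ribosome: 50 genes whose name on the array, without the suffix that marks a predicted gene, begins with Eif (eukaryotic initiation factor) or Eef (eukaryotic elongation factor). They were measured by 81 probes on 90 spots, out of 35639 gene names and 41012 probes in all. The samples were 5 cultures of Fao, a rat hepatoma line with hepatocyte traits, treated with 10 nM insulin for 0, 15, 30, 45 or 60 min, with 1 array per time. Before insulin, every culture, the 0 min culture included, had grown for 2 days in RPMI 1640 with 10% fetal bovine serum and had then gone through 16 h of starvation in medium that held the glucocorticoid dexamethasone at 10 nM. From each, 700 ng of total RNA was amplified, labelled with the dye Cy3 and hybridised to a 1-colour Agilent rat array. Fao is an established tumour line, so its cultures stand for 1 line and not for liver from different animals, and no culture without insulin was sampled beside the later times.

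Translation begins when the GTP-binding factor eIF2 brings the initiator tRNA to the small ribosomal subunit, eIF4E and its partners load the capped mRNA, and the large scaffold eIF3 holds the parts together. eIF2B recharges eIF2 with GTP, and stress kinases block that step by phosphorylating the alpha subunit of eIF2. Insulin acts on this machinery mainly through protein phosphorylation: the kinase mTOR releases eIF4E from its inhibitors, the 4E-binding proteins, and the kinase of elongation factor eEF2 is held in check. Many mRNAs of the machinery itself begin with a C followed by a run of pyrimidines, the 5′ terminal oligopyrimidine (TOP) motif, through which mTOR controls their translation. The arrays measured RNA and not protein, phosphorylation or translation.

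RefSeq promoter entries (build GRCr8) matched 44 of the 50 genes, and they were searched for the start-site motif and for motifs of factors that answer to growth signals. The windows below run from 10 bases before the annotated start to 20 bases from it on the transcript strand, and the capitals mark the C with the pyrimidines that follow it. They are shown because the first 3 hold the longest such runs among these genes and Eef1a1 is a textbook TOP gene.
Eef1b2: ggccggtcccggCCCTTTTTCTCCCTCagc
Eif3s5 (now Eif3f): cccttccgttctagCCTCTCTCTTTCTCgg
Eif2s3x (now Eif2s3): cagccgagcattttCCTTTTCTCTCTgagc
Eef1a1: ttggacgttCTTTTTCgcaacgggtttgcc
They lie at chr9:72074081-72074110 (plus strand), chr1:172369052-172369081 (plus), chrX:62933680-62933709 (minus) and chr8:88225050-88225079 (minus). A run of at least 7 such bases stood in this 30-base window in 6 of 44 genes (13.6%), the other two being Eif2a and Eef1e1, against 12.0% of 19005 rat promoters. The share among translation factors was thus near that of all promoters. Annotated starts can lie some bases from the start that cells use, so a missing run says only that these letters are not in this window.

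The E-box CACGTG, which the growth regulator Myc and several other factors bind, was present in 9 of 44 promoters (20.5%) over 300 bases (250 before the start and 50 after it), against 7.3% of all promoters. It reads the same on both strands. The 9 genes were Eef2, Eef2k, Eif1b, Eif3s10, Eif3s5, Eif3s9, Eif4e, Eif5a and Eif5a2, with 11 copies in all. The windows below show it in capitals for Eif1b, the gene with the largest change on these arrays, for Eif4e, the cap-binding protein and a textbook Myc target, and for the elongation factor gene Eef2.
Eif1b: ggaacgtgtggtCACGTGgcggcggcgcgc
Eif4e, upstream copy: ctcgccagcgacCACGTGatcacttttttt
Eif4e, downstream copy: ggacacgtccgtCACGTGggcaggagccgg
Eef2: cacccgcgccgtCACGTGacgtgcccaacc
These copies begin 54 bases before the start in Eif1b, 237 and 80 bases before it in Eif4e, and 76 bases before it in Eef2. The cyclic AMP response element TGACGTCA was found in 1 promoter, that of Eef2 (2.3% against 2.2% of all promoters). The core of the sites of FoxO factors, which insulin signalling keeps out of the nucleus, GTAAACA on either strand, was found in 0 of 44, against 3.3%. In Eef2 the TGACGTCA copy lies apart from the E-box. A match is a description of the sequence, not a bound site. At 60 min the median change was 0.12 log2 units over the 8 measured genes with an E-box and 0.17 over the 32 without one.

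Translation factors were broadly measurable in these cells. Of the 50 genes, 46 were well above background on all 5 arrays (92.0%, against 46.9% of all genes) and 4 on none: Eef1a2, the eEF1A form of muscle and neurons, Eif5a2, the second eIF5A gene, and Eif2c3 and Eif2c4. These last, with Eif2c1 and Eif2c2, carry an old name: they are now Ago3, Ago4, Ago1 and Ago2, the Argonaute proteins of small RNA silencing, and are not initiation factors. No member was well above background on some arrays and not on others, so every change below is measured on both sides. Of the 46, 28 (60.9%) lay in the brightest 20% of the genes measured on all 5 arrays.

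Levels are given as log2 of the signal over the 75th percentile of the same array, so that 0 is the signal of a probe at that percentile. Probes differ in how strongly they bind, so the level of 1 gene is not set against that of another, and the brightness classes sort probes by signal only. The 8 added control RNAs were 0.14 to 0.23 log2 units higher than at 0 min on this scale at the later times. The scaling on control RNAs used below takes the median control signal of each array, and its shifts differ from these values. At 45 min it moved the median change of all genes from 0.03 to -0.30. The arrays of 0 to 45 min shared 1 slide, in order of time, while the 60 min array was on another slide, so time and slide cannot be told apart at 60 min. That array also had a 75th percentile of 454.7 intensity units against 238.7 to 283.0 on the others, and 24489 spots well above background against 22069 to 22819. All 12 hepatocyte markers, such as albumin, were well above background on all 5 arrays, with a summed level of 10.16 to 10.33. Of the markers of other liver cells on the array, 1 of 4 for macrophages (Cd68), 1 of 3 for endothelium (Cdh5), 2 of 4 for stellate cells and fibroblasts (Col1a1 and Col1a2) and 1 of 1 for bile duct cells (Sox9) were above it on all 5 arrays. Kdr and Des were above it on 4 arrays, Csf1r on 3, and Cd163, Adgre1, Vwf and Pdgfrb on none. The summed levels of these lists were -2.34 to -1.92, -2.28 to -1.65, 0.90 to 1.04 and -2.63 to -2.43, in the same order, and their part in the results was not tested.

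**Figure D1:**
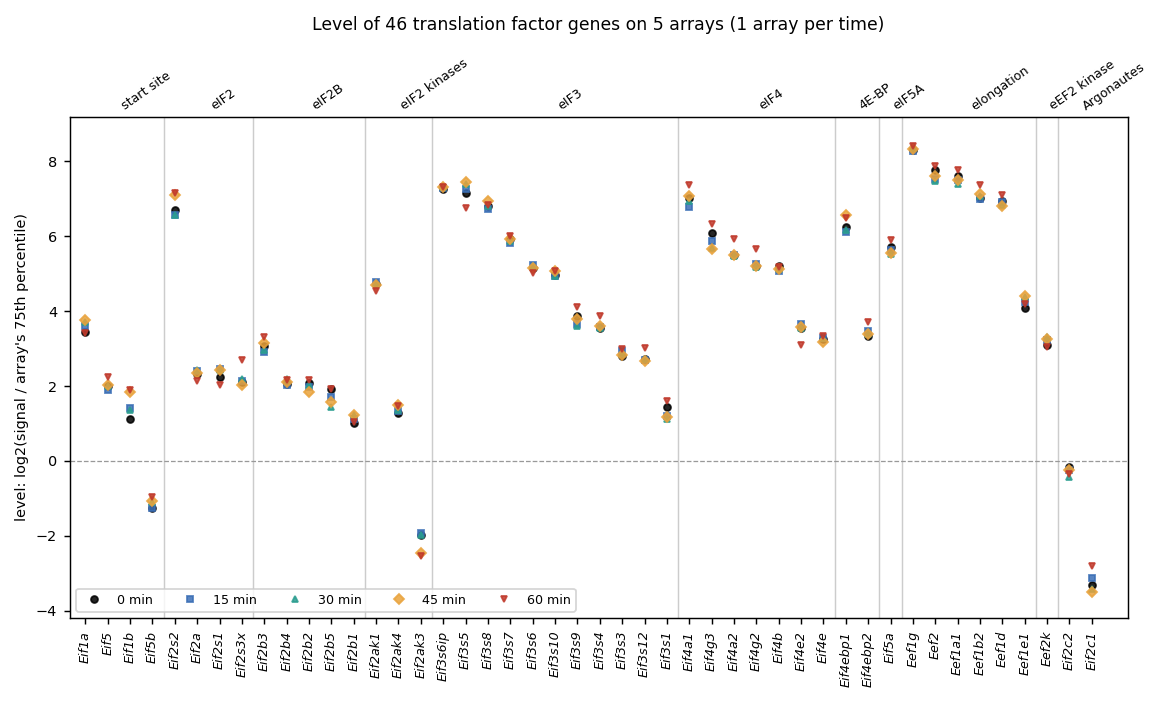
Level of each of the 46 translation factor genes on the 5 arrays (y axis, log2 of signal over the array's 75th percentile; x axis, genes grouped by role; 1 symbol per time, 1 array per time, no error bars because there are no replicates). The 5 symbols of most genes overlap; Eif1b, Eif2s2, Eif2s3x, Eif2ak3, Eif3s5 and Eif4g3 are among those whose symbols spread apart.

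Over the first 45 min the RNA of these genes was nearly level with the rest of the transcriptome. The median change from 0 min over the 46 genes was 0.00 log2 units at 15 min, 0.00 at 30 min and 0.02 at 45 min, against 0.03, 0.02 and 0.03 over all genes measured on at least 1 of the 2 arrays. At 60 min it was 0.13 against 0.03. Every comparison uses the same 0 min array, so an error on that array enters all 4 of them. In order of time the lowest value among the members was -0.24, -0.46, -0.48 and -0.58, and the highest was 0.29, 0.29, 0.71 and 0.77. The standard deviation over the 46 genes was 0.13, 0.17, 0.22 and 0.26 log2 units in order of time, and that over the 16702 genes measured on all arrays was 0.22, 0.23, 0.24 and 0.33.

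Counted past a fold, few members stood out. At 15 min, 0 of 46 genes were at least 1.5-fold higher or lower, with 5.04% of all genes past that fold. At 30 min the count was again 0, with 5.05% of all genes. At 45 min only Eif1b was past 1.5-fold, on the higher side, where 3.19% of all genes were, and 6.32% counting both directions. At 60 min Eif1b and Eif2s3x were past it, both higher, where 6.00% of all genes were, and 11.2% in both directions. At no time was a member at least 2-fold higher or lower, against 2.37%, 2.17%, 2.82% and 3.81% of all genes in order of time. The background shares include genes measured on only 1 of the 2 arrays. Among genes measured on both, 2.01%, 2.08%, 2.86% and 7.25% passed 1.5-fold. Neither set of shares was matched to the members' brightness. Eif2ak3, at -0.58 at 60 min, fell just short of the 1.5-fold line. With 1 array per time these differences have no replicate check and carry no p-value, and in RNA of a whole culture a change in RNA per cell and a change in the share of cells with that RNA cannot be told apart.

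Probes spotted 10 times gave a technical standard deviation for a change between 2 arrays, from their median spot spread. It was about 0.185 to 0.197 log2 units, which is too wide for the members at 15 and 30 min, as given below. A change of at least 0.20 in either direction was seen in 8, 12, 14 and 21 of the 46 genes at 15, 30, 45 and 60 min, or 17.4%, 26.1%, 30.4% and 45.7% of them. The shares of all genes measured on all arrays were 26.9%, 29.1%, 29.7% and 48.7%. The members' shares were thus close to those of all genes at 30, 45 and 60 min and lower at 15 min, a difference that was not tested and not matched for brightness. The technical error covers spots within an array only, not cultures, labelling or slides.

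At 60 min the members lay to one side. Of the 46, 35 (76.1%) were above the median of the genes measured on all 5 arrays, after 18, 20 and 21 of 46 at 15, 30 and 45 min. Within the brightest 20% of genes, where the median of all genes at 60 min was 0.03, the median of the 28 members was 0.12 and 21 of them were above 0, against 55.0% of all genes there. Scaled on the added control RNAs instead, the members' median at 60 min turned to -0.05 and that of all genes to -0.15, so the sign of the members' median against 0 min depends on the scaling. Such a scaling moves every gene of an array by the same amount and cannot alter the gap between members and all genes. On that scale the medians of all genes at 15, 30 and 45 min were -0.22, -0.23 and -0.30. Signs below refer to the 75th percentile scale.

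**Figure D2:**
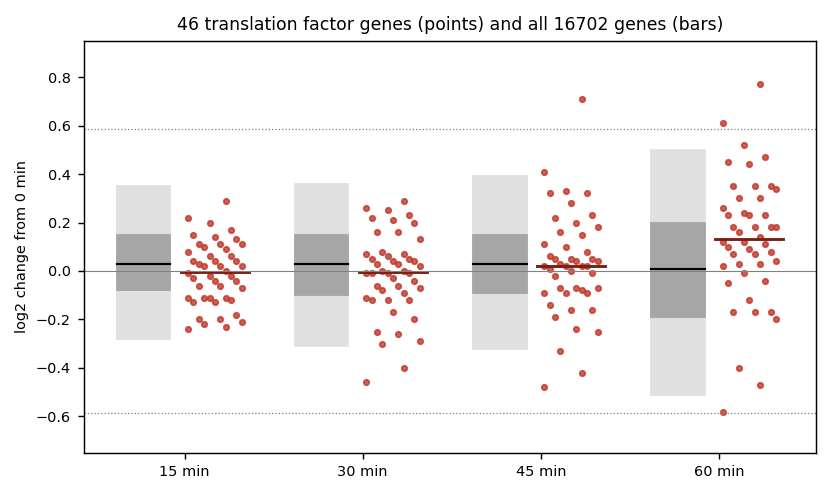
Change from 0 min in log2 units (y axis) at each time (x axis): red points are the 46 genes with their median as a dark red line, dark grey bars the middle 50% of 16702 genes, light grey bars their 5th to 95th percentiles, black lines their medians, and dotted lines mark 1.5-fold. The red points sit around the grey median up to 45 min and mostly above it at 60 min (medians 0.13 and 0.01 on the 75th percentile scale; scaled on the control RNAs the members' median is -0.05).

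The factors that find the start codon held the largest change. Eif1b, a close relative of eIF1, the factor that holds the scanning ribosome open until it meets the start codon, had levels of 1.13, 1.42, 1.36, 1.85 and 1.90 at 0, 15, 30, 45 and 60 min. The 4 insulin arrays were all above the 0 min array, and those of 45 and 60 min were above the others. The changes of 0.71 and 0.77 log2 units at 45 and 60 min correspond to 1.64-fold and 1.70-fold. The single probe (rn4, chr8:125500937-125501263, plus strand) had signals of 614.6 to 1696.4 intensity units, well above background throughout. With control RNA scaling the values were 0.39 at 45 min and 0.59 at 60 min, and against the 15 min array they were 0.42 and 0.48, under 1.5-fold. Eif1a, the partner of eIF1 in scanning, had levels of 3.44, 3.61, 3.70, 3.76 and 3.43, higher on the 3 middle arrays and back at the 0 min level on the other slide. Eif5, which makes eIF2 hydrolyse its GTP at the start codon, was 0.23 higher at 60 min and 0.33 by its second probe. Eif5b, which joins the large ribosomal subunit, was at -1.25, -1.25, -1.09, -1.08 and -0.95, a change of 0.30 at 60 min.

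Among the eIF2 genes, the beta subunit gene Eif2s2 stood out at 45 min. Its brightest probe (rn4, chr3:145346486-145346545, minus strand) was at 6.70, 6.57, 6.57, 7.11 and 7.16, and the arrays of 45 and 60 min lay above the others. At 45 min its 3 probes gave 0.41, 0.32 and 0.34, but at 60 min 0.47, 0.58 and -0.22, so the probes of 1 gene parted between slides. The gamma subunit gene Eif2s3x, which binds GTP and the initiator tRNA, was at 2.10, 2.14, 2.18, 2.03 and 2.70 by its brightest probe (rn4, chrX:81545002-81545061, minus strand). Only the 60 min array was high, by 1.52-fold, and its other probes gave -0.01 and -0.13 there, so that the mean over the probes was 0.15. The alpha subunit gene Eif2s1, target of the stress kinases, was 0.22, 0.20, 0.20 and -0.20 from its 0 min level in order of time. Eif2a, which despite its name is no subunit of eIF2 but a separate factor that can deliver initiator tRNA, was within 0.17 of its 0 min level throughout.

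The exchange factor eIF2B, which insulin activates by restraining glycogen synthase kinase, showed no gene past 1.5-fold. Its catalytic epsilon subunit Eif2b5 had levels of 1.91, 1.71, 1.45, 1.58 and 1.93, lowest at 30 min by 0.46 log2 units and back at 60 min. Eif2b3, the gamma subunit, was at 3.08, 2.90, 2.96, 3.14 and 3.31, and its second probe followed with changes of -0.25, -0.29, 0.15 and 0.25. The regulatory subunits Eif2b1, Eif2b2 and Eif2b4 changed by -0.24 to 0.23. At 60 min all 5 genes were above the median of all genes, by a median of 0.06.

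Of the kinases that phosphorylate eIF2, Eif2ak3 (PERK, the sensor of unfolded protein in the endoplasmic reticulum) had the most negative changes of any member at 45 and 60 min. Its levels were -1.97, -1.93, -1.98, -2.45 and -2.55, with the arrays of 45 and 60 min apart from the first 3. Its changes were -0.48 at 45 min and -0.58 at 60 min by 1 probe (rn4, chr4:104075118-104077133, plus strand). That probe was dim, with signals of 43.9 to 77.7 intensity units. The 45 min value was -0.17 with normexp background and -0.80 with control RNA scaling, while the 60 min value ranged from -0.76 to -0.54 over the alternatives. Eif2ak1 (the haem-regulated kinase) was 0.17 lower at 60 min and Eif2ak4 (GCN2, the sensor of uncharged tRNA) was 0.22 higher at 45 min and 0.18 higher at 60 min.

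**Figure D3:**
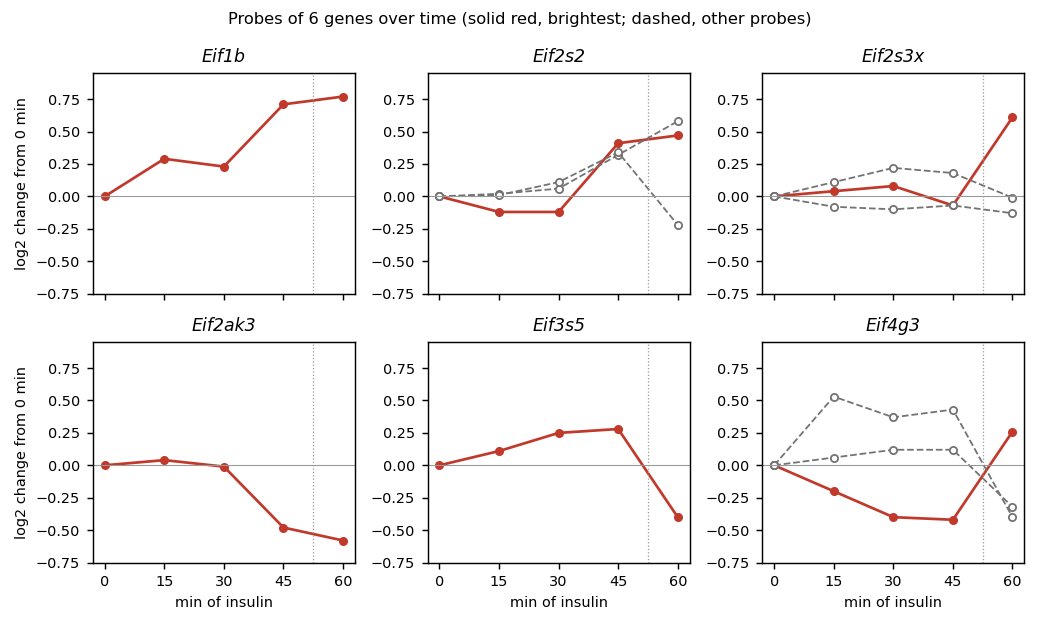
Change from 0 min in log2 units (y axis) against min of insulin (x axis) for every probe of 6 genes; solid red is the brightest probe, dashed grey the others, and the dotted line separates the 60 min array, on another slide. Eif1b reaches 0.77 and Eif2ak3 -0.58 with 1 probe each, while the probes of Eif2s2, Eif2s3x and Eif4g3 part at 60 min.

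eIF3, the scaffold on the small subunit, was covered by 11 genes under their old subunit numbers, and none passed 1.5-fold. At 60 min 9 of 11 were above the median of all genes, after 3, 5 and 5 at the earlier times. The exceptions were Eif3s6 (now Eif3e), 0.12 lower, and Eif3s5 (now Eif3f). Eif3s5 was at 7.16, 7.27, 7.41, 7.44 and 6.76: the 3 middle arrays were above the 0 min array and the 60 min array was the lowest, a change of -0.40. With 1 probe for the gene, this turn coincides with the change of slide and was not tested. Eif3s1 (Eif3j), the loosely bound subunit, was lower by 0.21, 0.30 and 0.25 at the first 3 times and 0.16 higher at 60 min. Eif3s9 (Eif3b), which carries the core of the complex, went from -0.22 and -0.26 at 15 and 30 min to 0.23 at 60 min. Eif3s4 (Eif3g) was 0.35 higher and Eif3s12 (Eif3k) 0.30 higher at 60 min, after -0.07 to 0.08 at the earlier times. Eif3s6ip (Eif3l), at 7.27, 7.30, 7.32, 7.32 and 7.32, moved least, and its second probe gave 0.16, 0.10, 0.06 and 0.04. The largest subunit Eif3s10 (Eif3a), Eif3s8 (Eif3c), Eif3s7 (Eif3d) and Eif3s3 (Eif3h) changed by -0.11 to 0.18 by their brightest probes. Over its 3 probes Eif3s10 ranged from -0.27 at 30 min to 0.33 at 45 min.

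Among the eIF4 genes, which recruit capped mRNA, the 60 min array was again the one that differed. Eif4a1, the RNA helicase that unwinds the leader of the mRNA, was at 7.03, 6.79, 6.95, 7.08 and 7.38, and at 60 min its 5 probes gave 0.35, 0.39, 0.10, 0.30 and 0.31. Its close copy Eif4a2 was at 5.49, 5.51, 5.48, 5.50 and 5.92 by 1 probe. The near-identical coding sequences of the 2 helicases may share signal. Eif4g2, a scaffold that lacks the eIF4E-binding part and serves cap-independent initiation, was at 5.20, 5.25, 5.17, 5.22 and 5.66, and its 5 probes gave 0.45, 0.19, 0.21, 0.27 and 0.46 at 60 min. For these genes every probe was higher at 60 min, though scaling on the control RNAs lowers all values there by about the shift of all genes given above. Eif4g3, the second scaffold that binds eIF4E, was at 6.08, 5.88, 5.68, 5.66 and 6.34 by its brightest probe. Its other probes went the other way, at 0.06, 0.12, 0.12 and -0.32, and at 0.53, 0.37, 0.43 and -0.40, so no direction can be given for the gene.

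Eif4e itself, the cap-binding protein, was at 3.26, 3.28, 3.29, 3.18 and 3.33, within 0.08 of its 0 min level, and its second probe was 0.30 higher at 60 min. Eif4e2, a cap-binding relative that represses mRNAs, was 0.47 lower at 60 min by one probe and 0.07 higher by the other. Eif4b, which stimulates the helicase and is phosphorylated after insulin, gave -0.04 at 60 min by its brightest probe and -0.34, -0.52 and 0.04 by the others. One of these is spotted 10 times: its mean levels over the usable spots were 4.72, 4.64, 4.74, 4.81 and 4.38, each with a standard error of 0.02 or 0.03 over 8 to 10 spots within the array. The drop at 60 min by this probe was therefore large against spot error, and the brightest probe of the same gene did not show it.

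The inhibitors of eIF4E that insulin switches off were on the array as 2 genes. Eif4ebp1 was at 6.24, 6.11, 6.17, 6.57 and 6.49 (rn4, chr16:69110542-69110601, minus strand), with the arrays of 45 and 60 min above the others. Its second probe gave 0.24 at 45 min and -0.09 at 60 min, against 0.33 and 0.24 by the brightest. Eif4ebp2 was at 3.35, 3.46, 3.40, 3.38 and 3.70, and its second probe gave -0.15 at 60 min against 0.34. The difference at 45 min for Eif4ebp1 thus had the same direction by both probes within 1 slide, and at 60 min the probes of both genes disagreed in sign.

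**Figure D4:**
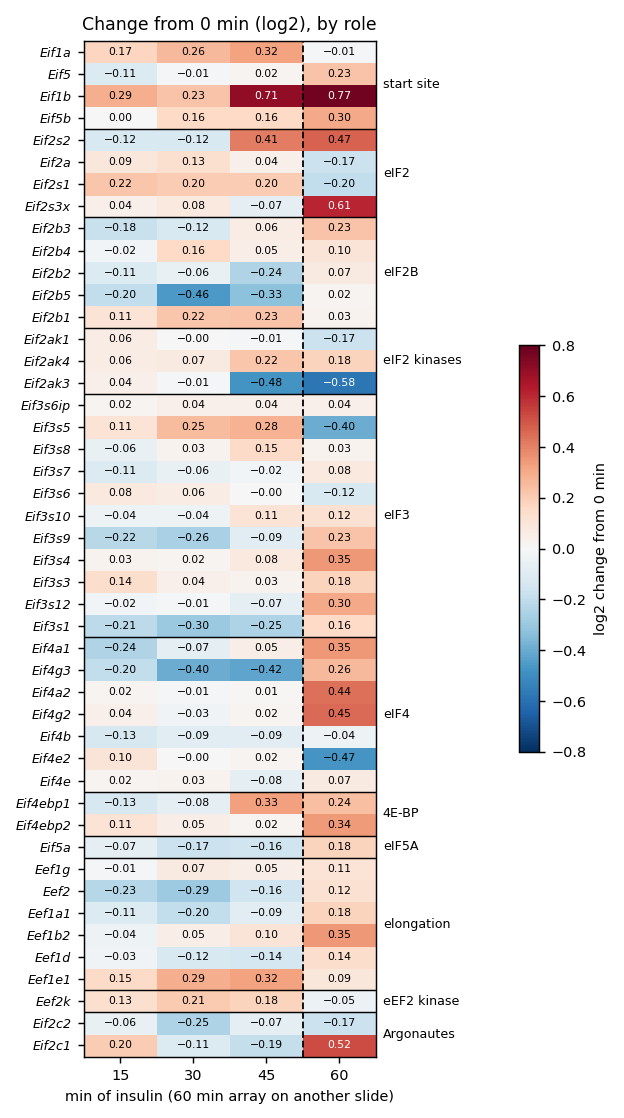
Change from 0 min in log2 units (colour and printed value, red higher and blue lower on the 75th percentile scale) for the 46 genes by brightest probe (rows, grouped by role) at 4 times (columns; the dashed line separates the array on the other slide). The 60 min column is mostly red, with Eif1b at 0.77, and blue for Eif2ak3, Eif4e2 and Eif3s5; scaling on the control RNAs moves the column's median from 0.13 to -0.05.

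Of the 6 measured elongation genes, 1, 3 and 3 were above their 0 min level at 15, 30 and 45 min, and 6 at 60 min on the 75th percentile scale. Eef1a1, which brings aminoacyl-tRNA to the ribosome, was at 7.61, 7.50, 7.41, 7.51 and 7.78, lowest at 30 min. Eef2, which moves the ribosome along by 1 codon, was at 7.76, 7.52, 7.47, 7.60 and 7.88 and had the same order. The genes of the exchange complex of eEF1A, Eef1b2, Eef1d and Eef1g, changed by 0.35, 0.14 and 0.11 at 60 min, and the 3 probes of Eef1g by 0.07 to 0.14. Eef1e1, a member of the multi-tRNA synthetase complex that shares the family name, was 0.29 higher at 30 min, 0.32 at 45 min and 0.09 at 60 min. At 60 min 6 of 6 genes were above the median of all genes, by a median of 0.12, after 1, 3 and 3 of 6 at the earlier times. Each of these differences except that of Eef1b2 was within the technical standard deviation at 60 min. That value rests on the median spot spread over many probes, 0.140 at 0 min and 0.122 at 60 min. The Eif4b probe spotted 10 times had a smaller one, 0.07 and 0.10, so the value may be too wide for bright probes, which was not tested.

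Eef2k, the kinase that stops eEF2 and that insulin restrains, was at 3.09, 3.22, 3.30, 3.27 and 3.04. Its second probe gave -0.13, 0.06, 0.05 and -0.19. Eif5a, the factor with the modified lysine hypusine that keeps ribosomes moving over difficult stretches, was at 5.71, 5.64, 5.53, 5.55 and 5.89. Of the Argonaute genes, Eif2c2 (Ago2, the form that cleaves its target) was lower by 0.06, 0.25, 0.07 and 0.17. Eif2c1 (Ago1) was 0.52 higher at 60 min by its brightest probe and 0.46 lower by the other, and both probes were dim.

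The slope over time was the one test the design allowed. With limma's moderated test over 16702 genes measured on all 5 arrays and Benjamini-Hochberg adjustment, 0 of 46 members passed a 5% false discovery rate, where 0.0120% of all genes (2 genes) did. At an unadjusted p under 0.05, 3 of 46 members (6.52%) and 10.1% of all genes were found. The 3 were Eif1b, Eif2ak3 and Eif2s2. Eif1b had a slope of 0.78 ± 0.17 (SE) log2 units per h over 5 arrays, with an unadjusted p = 0.0019 and an adjusted p = 0.23 by limma. Eif2ak3 had -0.67 ± 0.18 with an adjusted p = 0.31, and Eif2s2 0.59 ± 0.21 with an adjusted p = 0.43. The median slope was 0.11 log2 units per h over the members, 35 of 46 of them positive. Over all genes it was 0.01, with 8577 of 16702 positive. These slopes include the 60 min array, on another slide, so time and slide cannot be told apart in them. Of the members' changes, 18, 20 and 21 of 46 lay above the median of all genes at 15, 30 and 45 min, and 35 at 60 min. On simulated data for 16702 genes this test recovered 0% of slopes of 0.5 log2 units per h, 38% of slopes of 1 and 100% of slopes of 2. No slope between 0.5 and 1 was simulated, and no slide shift. With the 4 arrays of slide 1 alone, 0 members passed, and 0 of all genes. The members' smallest adjusted p by limma was 0.44, and 7 had an unadjusted p under 0.05. The share of all genes at that p is not given for this fit, so the 7 is not read as a result about the members.

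Different probes of the same gene gave a further repeat measure within the arrays. For the 17 genes with at least 2 probes well above background on all arrays, the median difference between the brightest probe and another was 0.13, 0.15, 0.10 and 0.21 log2 units at 15, 30, 45 and 60 min over 30 pairs, close to the 0.13, 0.15, 0.14 and 0.23 of all genes. The sign was shared by 16, 14, 20 and 19 of the 30 pairs (53.3%, 46.7%, 66.7% and 63.3%), against 60.2%, 58.7%, 58.9% and 57.5% of the pairs of all genes. All probes of a gene had 1 sign in 6, 6, 9 and 9 of the 17 genes, a count without a background share over all genes. At 60 min these included Eif4a1 and Eif4g2 with 5 probes each, and Eef1g with 3.

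**Figure D5:**
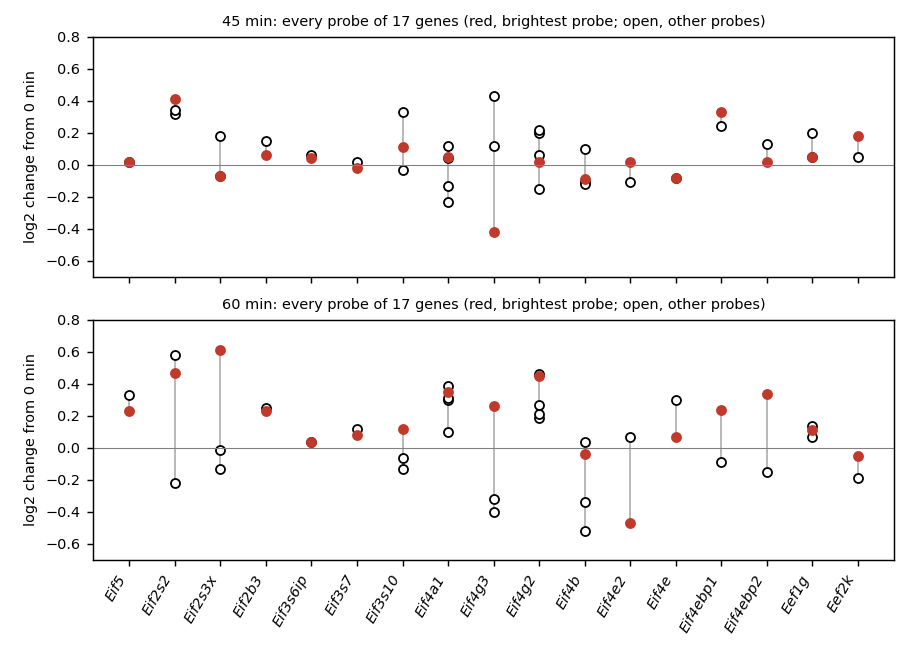
Change from 0 min in log2 units (y axis) by every probe of 17 genes (x axis) at 45 min (top) and 60 min (bottom); red is the brightest probe, open circles are other probes, and grey lines join the probes of a gene. Probes of Eif2s2 sit together at 45 min (0.32 to 0.41) and spread at 60 min (-0.22 to 0.58), and all 5 probes of Eif4a1 and of Eif4g2 lie above 0 at 60 min on the 75th percentile scale.

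Other genes of translation and of its control by insulin had median changes near that of all genes at each time. They were listed by name, with earlier results of these data known. Of 52 listed genes 35 were measured on the array, with median changes of -0.02, 0.05, 0.03 and -0.02 at 15, 30, 45 and 60 min, and 17, 23, 21 and 16 of 35 above 0. Of all genes measured on at least 1 of the 2 arrays, 56.6%, 54.2%, 56.0% and 53.8% were above 0. On both arrays 0 were at least 1.5-fold higher or lower at any time. Mlst8, a subunit of both mTOR complexes, was at least 1.89-fold lower at 30 min and at least 1.68-fold lower at 45 min, where it was not well above background. Mtor itself changed by 0.14, 0.05, 0.12 and -0.02, and Rps6kb1, the S6 kinase downstream of it, by 0.16, -0.13, -0.09 and 0.17.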

How the data were processed

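The members and gene lists were chosen with earlier results of these data known. Per the file headers, Agilent Feature Extraction 9.5.3.1 produced the deposited intensity and had already removed background and trends across the slide surface. The authors' deposited series matrix holds log2 values of 19746 non-control probes. The steps behind it are not given in the sources used here. Its values matched the scanner-derived log2 values centred per probe (r = 1.0000), with column medians of 0. It served as an alternative.

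Control and outlier spots were left out, spots of a probe averaged, the intensity divided by its array's 75th percentile and log2 taken. The brightest probe stood for a gene. Probe coordinates are those of the files (rn4). Current names came from RefSeq (GRCr8): 31 genes by accession, 11 by symbol and 8 by older symbol. Fold thresholds were 1.5 and 2. A gene well above background on 1 of 2 arrays kept its change as calculated, an estimate and not a strict limit. The slope was fitted with limma 3.58.1 (R 4.3.3, Python 3.11.15) with 3 residual degrees of freedom. The test was checked on simulated data, where 5 of 124 calls were false. The simulated noise was independent between genes and arrays and held no slide shift. The check therefore cannot show how often the test errs on these arrays. No spot was saturated. The labels name no replicate cultures, and 1 array per time limits the precision.

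Genes were named where a measured change reached 1.5-fold, where the range over the arrays was among the 10 largest, where the probe was among the 5 brightest or 5 dimmest, or from 44 fixed names, of which 36 were on the array under that name. Another 5 members were added to complete the groups. Alternatives covered scaling, background, the dim-probe filter, the probe rule, the reference array and the slide; 2 more (a normexp refit and cyclic loess) were chosen after seeing the data.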

Additional observations from a re-analysis of the deposited data

How the results depend on the processing

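No paired analysis was possible because each time has 1 array. The number of members past the 5% false discovery rate was 0 under every alternative run. With slide 1 alone, normexp and its refit, the mean over probes or no dim-probe filter, 0 of all genes passed as well. The 0 members there therefore say nothing particular about them. Without the 0 min array 24 of all genes passed (0.144%). The members' median change less that of all genes (-0.03, -0.03, -0.01 and 0.10 in order of time) moved with a few choices. Normexp background gave -0.64 at 15 min and 0.31 at 60 min. At 15 min 28 members were then past 1.5-fold (26 lower), with 49.6% of all genes, and 1 past 2-fold. A refit left out 5 spots of that array whose local background exceeded their signal by over 100 intensity units. This alternative, chosen after seeing the data, gave 0 members past 1.5-fold at 15 min, and 0.31 at 60 min. With no filter on dim probes the difference was -0.14, -0.22, -0.16 and 0.38, since the floor differs between arrays. Against the 15 min array it was 0.01, 0.03 and 0.17 at 30, 45 and 60 min, and 0 members passed 1.5-fold at 45 min. Control RNA scaling gave 2 members past 1.5-fold at 30 min and 3 at 45 min, all lower, and 1 higher and 2 lower at 60 min, with 8.30%, 12.1% and 14.4% of all genes. The mean over probes gave 1 at 60 min. For these values the cause was not tested. Of single-gene values, control RNA scaling moved 123 of 164 by more than the technical spread, normexp 45 and the 15 min reference 24 of 123. The count for control RNA scaling reflects shifts of whole arrays, since it moves every gene of an array by the same amount. Cyclic loess, median scaling, quantile normalization and the series matrix moved 0 of 164. The series matrix repeats the main values centred per probe, so its 0 was fixed in advance and is no check. Median scaling only shifts all genes of an array by the same small amount. The slide of the 60 min array and the missing replicates limit every statement on that time.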

Other observations

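Some translation factors were on the array under names that do not begin with Eif or Eef and were looked up after the values were known. Eif6, which keeps the ribosomal subunits apart, was listed as Itgb4bp, at levels of 4.46, 4.29, 4.60, 4.73 and 4.59 at 0, 15, 30, 45 and 60 min. Eif4h, a helper of the helicase listed as Wbscr1, was at 6.26, 6.44, 6.41, 6.48 and 6.24. The main scaffold Eif4g1 was measured by 3 probes, whose changes at 60 min were 0.37, -0.19 and 0.03. The changes of Eif2ak2, the kinase PKR that answers to double-stranded RNA (listed as Prkr), were 0.32, 0.12, 0.15 and 0.55 by the brighter probe and 1.27, -0.18, 1.40 and -0.57 by a dimmer one.

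Among the other translation genes, the 5 largest changes measured on both arrays were those of Ppp1r15a, the phosphatase subunit that restores eIF2, at -0.55 at 15 min, Dph2, of the pathway that makes the diphthamide residue of eEF2, at -0.50 at 45 min, Pdcd4, an inhibitor of eIF4A, at -0.49 at 60 min, Secisbp2, which helps selenocysteine into proteins, at -0.46 at 45 min, and Ppp1r15b, the constitutive counterpart of Ppp1r15a, at 0.45 at 45 min. All 5 were below 1.5-fold, and a second probe of Secisbp2 gave -0.16 at 45 min. These genes were picked for their size after the values were seen.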
